A study of Mus musculus with 3 samples.

Results

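The gene loci of HIF feedback, angiogenesis, mitophagy and related hypoxia responses described here are Egln1, Egln3, Vegfa, Bnip3, Kdm3a, Ankrd37, Ddit4 and P4ha1, all known as hypoxia-response genes. A peak was a member when its summit lay in an mm9 interval of 70 to 120 kb set around each gene, 760 kb in all. The intervals, in Mb, were 127.42 to 127.52 on chromosome 8 for Egln1, 55.25 to 55.35 on chromosome 12 for Egln3, 46.13 to 46.21 on chromosome 17 for Vegfa and 146.04 to 146.14 on chromosome 7 for Bnip3. They were 71.52 to 71.62 on chromosome 6 for Kdm3a, 47.05 to 47.12 on chromosome 8 for Ankrd37, and 59.37 to 59.46 and 58.74 to 58.86 on chromosome 10 for Ddit4 and P4ha1. By this rule 12 of 3055 peaks of replicate 1 and 9 of 2680 of replicate 2 were members. The rule used position alone, but the loci and intervals were chosen with earlier results of these data known. The peaks come from chromatin immunoprecipitation with an antibody against HIF1A, followed by sequencing, in melan-Ink4a-Arf-null cells. This is 1 immortalized mouse melanocyte line, from Cdkn2a tm1RDp/tm1RDp mice, so every sample lacks the products of that tumour suppressor locus. All cells spent 24 hours in 1% oxygen before crosslinking and were grown with 10% fetal bovine serum, 200 nM of a phorbol ester and 200 pM cholera toxin. The samples are 2 HIF1A immunoprecipitations and 1 input. No normoxic sample was analysed here, so nothing below compares oxygen levels. The labels do not say that the 2 immunoprecipitations came from separate cultures, so their spread may be technical. The melanocyte identity could not be checked against marker genes, since peak lists carry no expression values.

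HIF1A is the oxygen-controlled subunit of hypoxia-inducible factor. In oxygen, prolyl hydroxylases of the Egln family mark it for destruction; in hypoxia it accumulates, pairs with ARNT and binds DNA at a short core motif, ACGTG or GCGTG. Egln1 and Egln3 encode such hydroxylases, are themselves hypoxia targets and thereby close a feedback loop. Vegfa encodes the main growth factor of blood vessels, and Bnip3 a mitochondrial outer membrane protein that recruits the autophagy machinery. Kdm3a encodes an oxygen-dependent demethylase of histone H3, Ddit4 an inhibitor of mTORC1 signalling and P4ha1 a catalytic subunit of collagen prolyl hydroxylase. Ankrd37 encodes an ankyrin repeat protein and is known mainly as a gene induced in hypoxia.

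The promoters of the 8 genes are shown first because they can be searched for the HIF core motif. They are RefSeq sequences in build GRCm38.p6, on the gene's strand, in lower case with matches to ACGTG or GCGTG on either strand in capitals. The peaks are in build mm9, so no promoter was placed under a peak, and GRCm38 positions cannot be set against the peak positions given further on. All 8 genes matched the RefSeq table, with 11 annotated starts. The 250 bases before the start are printed for Bnip3 and Egln1. The Bnip3 locus held 2 sites in both replicates, as did those of Ankrd37 and P4ha1, and the Egln1 locus held none. Bnip3 also had the most motif matches, 5, so these 2 promoters do not stand for the whole set.
Bnip3, chr7:138909507-138909756, minus strand: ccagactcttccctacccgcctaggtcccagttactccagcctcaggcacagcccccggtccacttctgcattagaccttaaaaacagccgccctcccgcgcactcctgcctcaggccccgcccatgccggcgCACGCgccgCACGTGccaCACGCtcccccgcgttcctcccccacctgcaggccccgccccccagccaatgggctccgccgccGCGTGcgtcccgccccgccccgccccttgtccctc
Egln1, chr8:124949255-124949504, minus strand: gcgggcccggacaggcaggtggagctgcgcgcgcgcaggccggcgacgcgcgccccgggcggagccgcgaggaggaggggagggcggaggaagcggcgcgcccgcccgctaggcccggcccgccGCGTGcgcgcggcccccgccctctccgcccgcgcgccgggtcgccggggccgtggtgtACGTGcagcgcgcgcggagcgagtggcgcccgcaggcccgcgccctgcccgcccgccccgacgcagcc

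For the other genes, 30 bases around one match each are enough to compare the motif and its flanks. The distances from the first motif base to the start are 229 bases for Egln3, 211 for Vegfa (its second listed start, within the gene), 27 for Kdm3a, 6 for Ankrd37, 187 for Ddit4 and 16 for P4ha1. The 250 bases before the Ankrd37 start also lie within that gene's annotated span, as do part of those for Kdm3a and P4ha1.
Egln3, chr12:54204086-54204115, minus strand: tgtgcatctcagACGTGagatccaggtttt
Vegfa, chr17:46025357-46025386, minus strand: ggagtGCGTGccCACGTcagagagcaacat
Kdm3a, chr6:71632927-71632956, minus strand: ccgggaggctgtGCGTGtcttgtgagagag
Ankrd37, chr8:45999851-45999880, minus strand: ggctgcacatgtcagtgtttgggtACGTGa
Ddit4, chr10:59951940-59951969, minus strand: agaacgttgcgaACGTGcgcccggtgccta
P4ha1, chr10:59323266-59323295, plus strand: ggtgtgacagagcgCACGTagcgagggctg

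Over 300 bases, from 250 before to 50 after a start, each of the 8 genes had a match to ACGTG or GCGTG at 1 of its starts or more, and 46.7% of 27025 genes in the table did. With ACGTG alone the count was 7 of 8, against 21.8% of genes. Counted by start, 8 of 11 had either motif, against 43.8% of all promoters, and 7 of 11 had ACGTG, against 19.6%. Kdm3a was the gene without ACGTG: its first listed start had 1 GCGTG and its other starts had no match. Vegfa had no match at its first listed start, so it was counted through its second, within the gene. Bnip3 had 5 matches, of which a pair is the palindromic CACGTG read on both strands, and Ankrd37 had 4, of which a pair overlaps. Base composition differed too: the median GC content of the 250 bases was 67.6% over the 11 starts and 52.4% over all promoters, and its part in the motif counts was not tested. Egln1, the locus without a peak, had 2 matches in a window of 86.0% GC. A match describes letters in this window and is no evidence of binding.

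**Figure D1:**
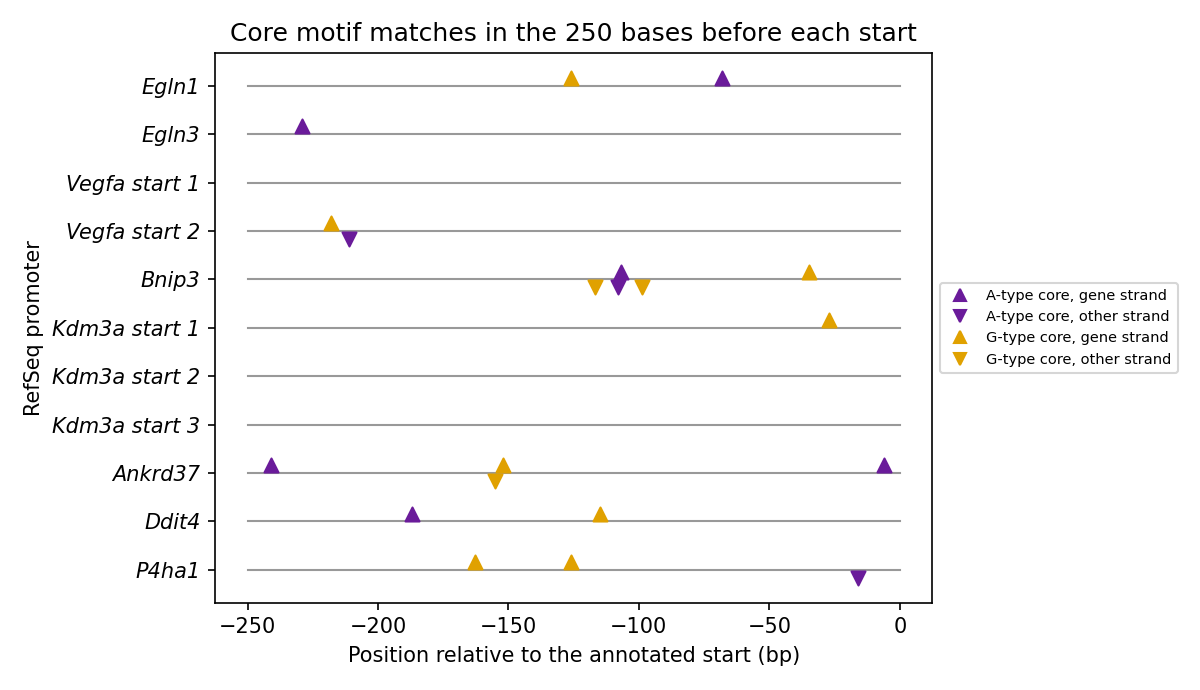
Matches to the HIF core motif in the 250 bases before each of the 11 RefSeq starts of the 8 genes; the x axis is the position relative to the start in bp, purple marks ACGTG, yellow marks GCGTG, and triangles pointing up or down mark the gene's strand or the other strand. Bnip3 has the most matches, 5, and Vegfa start 1 and Kdm3a starts 2 and 3 have none.

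HIF1A peaks were called at 7 of the 8 loci in replicate 1 and at 6 in replicate 2. The 6 loci with a peak in both lists were Egln3, Bnip3, Kdm3a, Ankrd37, Ddit4 and P4ha1; Vegfa had a peak in replicate 1 only, and Egln1 had none in either. The intervals are mostly close to 0.1 Mb, and among 26232 windows of 0.1 Mb along the chromosomes 6.73% held a summit of replicate 1, 4.12% a summit of replicate 2 and 3.39% a summit of both. Those windows include stretches without genes, which the chosen intervals do not, and no test was made of the difference. The loci and intervals were also chosen with earlier results known, so the comparison is not independent of these data. The peaks formed 12 separate sites, of which 9 were found in both replicates. Kdm3a, P4ha1 and Ankrd37 carried the sites of highest fold enrichment over local background, at 11.9, 9.84 and 8.18 in replicate 1 and 7.87, 7.59 and 7.47 in replicate 2. Fold, tag counts and the p-based score (10 times the -log10 p-value) are the authors' caller's values for each peak. They are not directly comparable between the lists, which differ in depth (94716495 tags in replicate 1 and 103139204 in replicate 2). The fragment sizes estimated by the caller also differ, at 68 bp in replicate 1 and 53 bp in replicate 2.

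**Figure D2:**
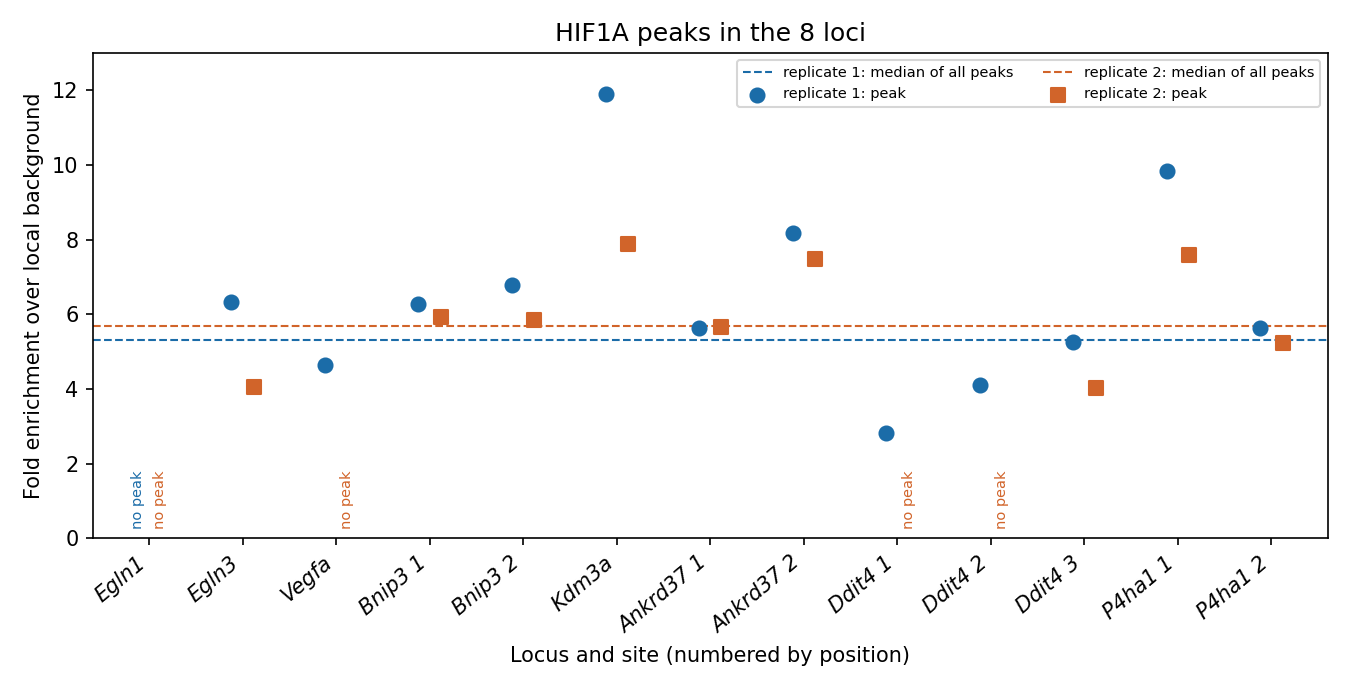
Fold enrichment over local background (y axis) of every peak at the 8 loci, by locus and site (x axis), with circles for replicate 1, squares for replicate 2 and dashed lines at the median of all peaks of each list. Kdm3a, the first P4ha1 site and the second Ankrd37 site stand highest in both lists, Vegfa and the first 2 Ddit4 sites have a replicate 1 peak only, and Egln1 has none.

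Of the feedback hydroxylases, Egln3 had a called HIF1A peak in both lists and Egln1 in neither. The Egln3 peak lay at chr12:55292764-55293498 in replicate 1, with 160 tags, a fold of 6.32 and a p-based score of 336.8. In replicate 2 it lay at chr12:55292879-55293368, with 101 tags, a fold of 4.05 and a score of 110.86. The caller's false discovery rate was 28.26% in replicate 1 and 93.58% in replicate 2. The peak stood higher in the first list than in the second: 65.9% of replicate 1's peaks had a lower fold, and 19.4% of replicate 2's. Its summits were 133 bp apart, the widest gap among the 9 paired sites, although the replicate 2 peak lay wholly inside the replicate 1 peak. Egln3 was also the only member in a 1 Mb window with at least 8 peaks, but the 7 other peaks there in each list began 448 kb beyond the interval.

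Egln1 encodes the main hydroxylase of HIF1A, and no region of its 100 kb interval passed the caller's threshold in either replicate. The nearest called peak was 348 kb outside the interval in replicate 1 (70 tags, fold 4.63) and 1380 kb in replicate 2 (125 tags, fold 2.89). Reads at the locus were not analysed here, so enrichment below the threshold was not measured.

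Vegfa had 1 peak, in replicate 1, at chr17:46167772-46168429. It held 148 tags, with a fold of 4.64, a score of 174.87 and a caller false discovery rate of 45.82%. By score it stood above 70.6% of the list, and by fold above 35.1%. Among replicate 1's peaks in the same quintile of score, 67.6% overlapped a peak of replicate 2 (exact 95% interval 63.7 to 71.3%). Outside 1 Mb windows with at least 8 peaks the share was 53.5% (48.2 to 58.8%). The nearest replicate 2 peak was 181 kb outside the interval, as was the nearest other peak of replicate 1.

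Bnip3, the mitophagy receptor gene, had 2 sites, and both were found in both replicates. The first lay at chr7:146098601-146099231 in replicate 1, with 120 tags and a fold of 6.27, and at chr7:146098727-146099244 in replicate 2, with 99 tags and a fold of 5.92. The second lay at chr7:146100859-146101878, with 303 tags and a fold of 6.79, and at chr7:146100923-146101766, with 228 tags and a fold of 5.84. The second site therefore had more tags in each list, while the folds of the 2 sites were close and changed order between the replicates. Their summits were 2420 bp apart in replicate 1 and 2352 bp in replicate 2. Scores were 256.58 and 184.06 at the first site and 664.86 and 343.02 at the second, in replicates 1 and 2. No other called peak lay within 619 kb of the interval in replicate 1.

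Kdm3a, the histone demethylase gene, held the strongest site of the 8 loci by fold, tags and score in both lists. The peak spanned chr6:71582405-71583901 in replicate 1, with 641 tags, a fold of 11.9 and a score of 1663.87. In replicate 2 it spanned chr6:71582773-71583906, with 452 tags, a fold of 7.87 and a score of 1001.72. It ranked 45 of 3055 and 46 of 2680 by score, a like position in both lists, and 157 and 608 by fold. The summits were 12 bp apart. In replicate 1 the peak was lopsided, with its summit at 68.4% of its length of 1497 bp, and the replicate 2 peak overlapped 75.4% of it.

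Ankrd37 had a strong and a moderate site 24.9 kb apart, each found in both replicates. The moderate one lay at chr8:47060295-47060956 in replicate 1, with 151 tags and a fold of 5.62, and at chr8:47060246-47061019 in replicate 2, with 174 tags and a fold of 5.66. It was the only paired site with the higher fold and the higher tag count in replicate 2. The strong one lay at chr8:47084818-47086115, with 498 tags and a fold of 8.18, and at chr8:47084944-47086005, with 393 tags and a fold of 7.47. Its summits were 2 bp apart, the closest of all paired sites at these loci. Scores were 200.76 and 191.72 at the moderate site and 938 and 564.63 at the strong one.

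The Ddit4 interval held the most sites in replicate 1, 3, and these had the lowest scores of the members in that list. The first, at chr10:59373913-59374842, had 153 tags and a fold of 2.82, lower than all but 1.01% of the list, and lay 4.38 kb inside the lower edge of the interval. The second, at chr10:59414197-59415089, had 213 tags and a fold of 4.11. Neither had a partner in replicate 2. The third was paired, at chr10:59427148-59427751 with 100 tags and a fold of 5.26 in replicate 1, and at chr10:59427124-59427530 with 80 tags and a fold of 4.03 in replicate 2. Scores of the 3 sites in replicate 1 were 58.47, 104.7 and 99.67, and the caller's false discovery rate was 100% for each of these peaks, replicate 2's included. The unpaired second site thus scored no lower than the paired one. A false discovery rate of 100% was common: 1659 of 3055 peaks of replicate 1 and 1467 of 2680 of replicate 2 had it. In the quintiles of score that hold the unpaired sites, 32.6% (28.9 to 36.4%) and 54.7% (50.6 to 58.7%) of replicate 1's peaks had a partner, and outside peak-rich windows 16.8% and 33.0%.

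P4ha1, the collagen-modifying enzyme gene, had a strong and a weak site close together. The strong one lay at chr10:58785572-58786505 in replicate 1, with 369 tags, a fold of 9.84 and a score of 950.53. Replicate 2 had it at chr10:58785540-58786390, with 350 tags, a fold of 7.59 and a score of 869.48. The weak one lay at chr10:58787247-58787670, with 58 tags, a fold of 5.64 and a score of 129.89, and at chr10:58787313-58787528, with 29 tags, a fold of 5.22 and a score of 58.21. It had the fewest tags of any member in both lists, and its summits were still only 10 bp apart. The summits of the strong and weak sites were 1427 bp apart in replicate 1 and 1461 bp in replicate 2.

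Genes next to the 8 in the GRCm38 table may share these intervals, since a peak was tied to a locus by position alone. The next protein-coding genes are Sprtn and Tsnax beside Egln1, Npas3 and Sptssa beside Egln3, Mrps18a on one side of Vegfa, and Ppp2r2d and Jakmip3 beside Bnip3. They are Chmp3 and Reep1 beside Kdm3a, Ufsp2 and Lrp2bp beside Ankrd37, Dnajb12 and Anapc16 beside Ddit4, and Sowahc and Pla2g12b beside P4ha1. Whether a site lies in a promoter, exon or intron was not determined, for want of an mm9 annotation. Widening each interval by 50 kb on both sides added no peak, and the nearest peak outside any interval was 181 kb away. Such sparseness is not particular to these loci. Outside peak-rich windows the median gap between summits was 585 kb in replicate 1 and 1190 kb in replicate 2.

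**Figure D3:**
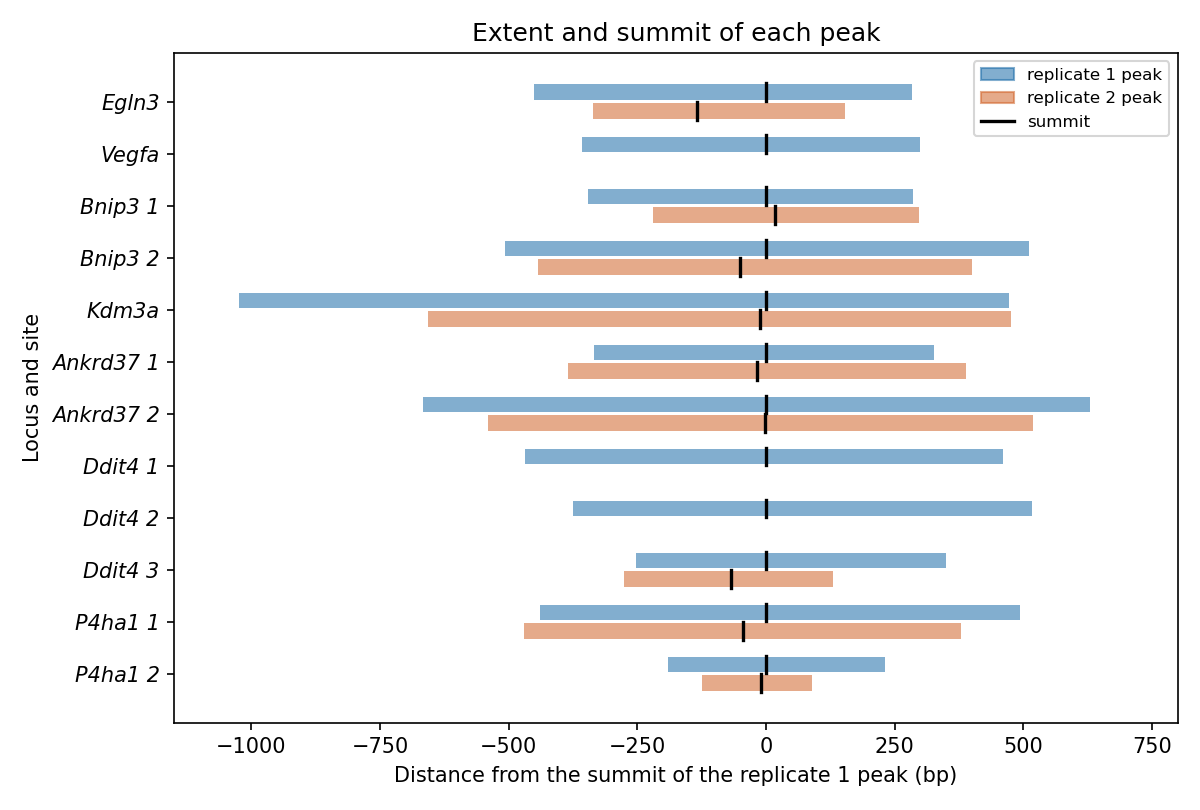
Extent (bars) and summit (black lines) of each peak at the 12 sites, as distance in bp from the replicate 1 summit, with blue for replicate 1 and orange for replicate 2. Summits of the 9 paired sites differ by 2 bp at the second Ankrd37 site to 133 bp at Egln3, and in 8 of the 9 the replicate 2 bar is the shorter. Replicate 2 peaks are also shorter over the whole lists, with a median length of 366.5 bp against 559 bp in replicate 1.

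Taking the members as a set, 9 of the 12 in replicate 1 overlapped a peak of replicate 2 (75.0%, exact 95% interval 42.8 to 94.5%), against 58.1% of all replicate 1 peaks and 43.3% of those outside peak-rich windows. All 9 in replicate 2 overlapped a peak of replicate 1 (interval from 66.4%), against 72.2% of all and 76.6% outside such windows. With so few peaks these intervals include every background share given here. The 2 lists have 1 control in common, and the intervals treat peaks as independent, which sites of 1 locus may not be. Sharing rose with score in both whole lists, and 6 of the 12 members of replicate 1 were in the top quintile, where 90.0% of peaks were shared.

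**Figure D4:**
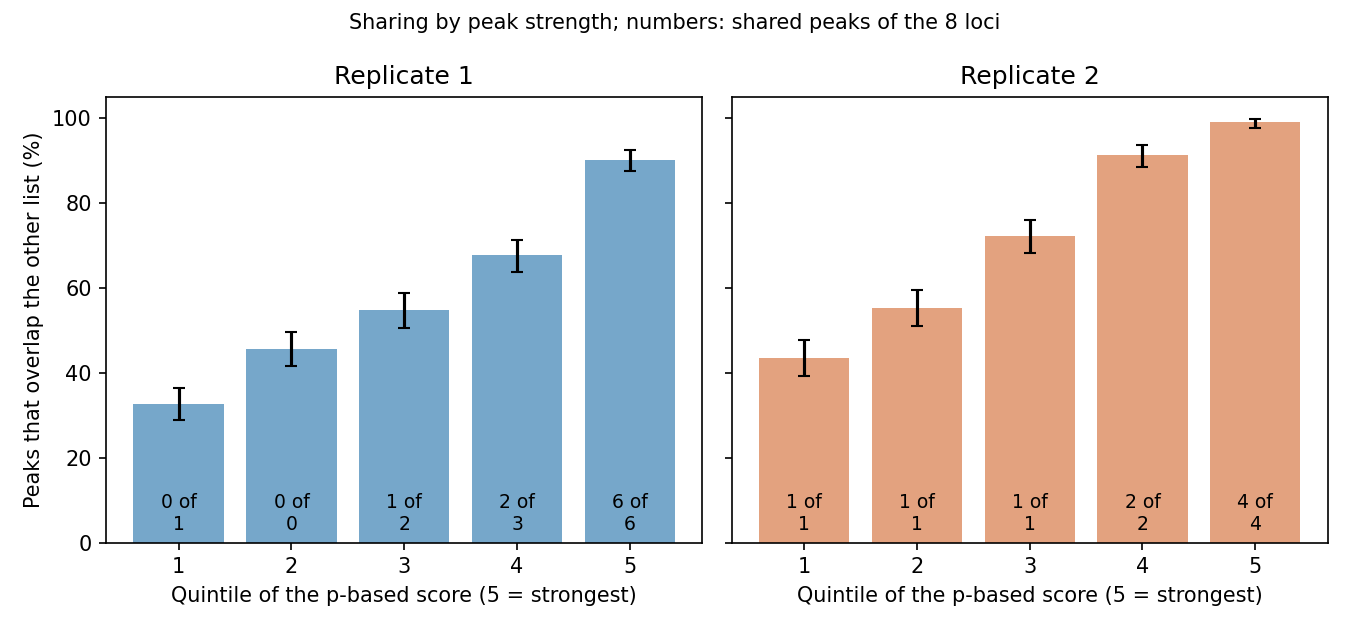
Share of peaks that overlap the other list (y axis, percent, with exact 95% intervals) by quintile of the p-based score (x axis, 5 the strongest) for each replicate, with the number of peaks of the 8 loci that were shared, of those present, written in each bar. The unshared members of replicate 1 sit in bars 1, 3 and 4, and all 6 members in bar 5 are shared.

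The median score was 228.67 in replicate 1 and 191.72 in replicate 2, beside 103.51 and 97.91 over all peaks, and 10 of 12 and 7 of 9 members lay above the list's median. Median tags were 156.5 and 174, beside 103 and 74 over all peaks. The median fold was 5.96 and 5.84, beside 5.32 and 5.68, with 8 of 12 and 5 of 9 above. Outside peak-rich windows, where all members but Egln3 lie, the medians over all peaks of replicates 1 and 2 were 101.02 and 94.98 for score, 114 and 91 for tags, and 4.89 and 5.11 for fold. Members were also long: 11 of 12 and 8 of 9 exceeded the list's median length, and a longer peak collects more tags, so the part of length in the tag counts was not tested. The caller's false discovery rate was at most 25% for 4 members of replicate 1, namely Kdm3a (13.33%), the first P4ha1 site (21.65%), the second Ankrd37 site (22.45%) and the second Bnip3 site (23.49%). Over the whole list 7.14% of peaks met that limit. In replicate 2 the members' rates ran from 62.2 to 100%, in a list where no peak was below 58.72%. The sites of highest fold did not have the lowest rates there. Kdm3a had 82.61%, the first P4ha1 site 79.31% and the second Ankrd37 site 68.87%, against 63.65 and 62.2% at the first and second Bnip3 sites.

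The order of the 9 paired sites was alike in the 2 lists at the top and mixed below. By fold, Kdm3a, the first P4ha1 site and the second Ankrd37 site held the first 3 places in both. Between replicates 1 and 2 the first Bnip3 site moved up (places 6 and 4), as did the first Ankrd37 site (8 and 6). The second Bnip3 site (4 and 5) and Egln3 (5 and 8) moved down. The second P4ha1 site was at place 7 and the third Ddit4 site at place 9 in both. By tags the order was nearly fixed, with the first 3 places held by Kdm3a, the second Ankrd37 site and the first P4ha1 site in each list, and only Egln3 and the first Ankrd37 site changing places. Spearman's rho between the lists over these 9 sites was 0.85 for fold, 0.92 for score and 0.98 for tags, given as a description; over all 1742 pairs the values were 0.59, 0.57 and 0.84, and over the 797 pairs outside peak-rich windows they were 0.68, 0.67 and 0.87.

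Scaled to 1000000 of the immunoprecipitation's total tags, the Kdm3a site held 6.77 tags in replicate 1 (exact Poisson 95% interval 6.25 to 7.31) and 4.38 in replicate 2 (3.99 to 4.81). The second Ankrd37 site held 5.26 (4.81 to 5.74) and 3.81 (3.44 to 4.21), and the first P4ha1 site 3.9 (3.51 to 4.31) and 3.39 (3.05 to 3.77). In replicate 1 the intervals of these 3 sites did not overlap, and in replicate 2 each overlapped the next, while those of Kdm3a and the first P4ha1 site did not overlap. Between the replicates, the intervals did not overlap at Kdm3a, Egln3 and the second sites of Ankrd37, Bnip3 and P4ha1. They overlapped at the other paired sites. This comparison was not made over all pairs, so it cannot be read as a trait of these sites. In the whole lists, fold was higher in replicate 1 for 81.2% of pairs outside peak-rich windows. The median peak length was 559 bp in replicate 1 and 366.5 bp in replicate 2. The peaks were called with different extents, and these intervals cover counting error only. At the weak end, the second P4ha1 site held 0.612 (0.465 to 0.792) and 0.281 (0.188 to 0.404) tags on that scale.

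**Figure D5:**
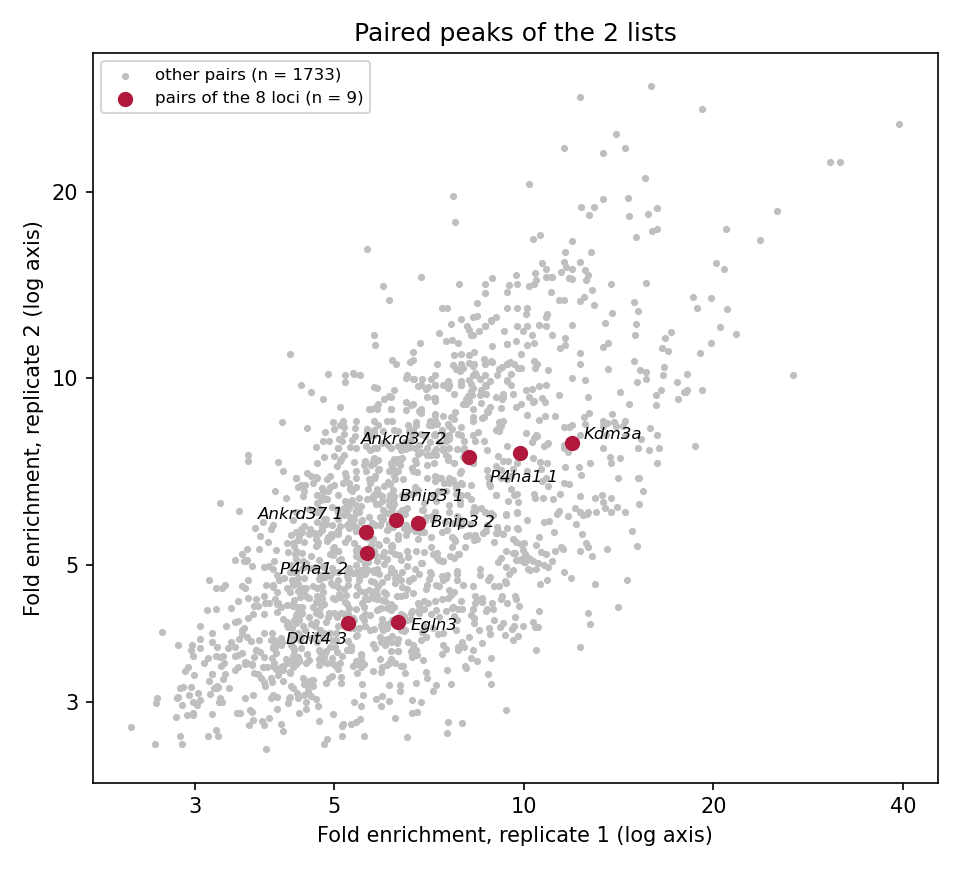
Fold enrichment of the 1742 paired peaks in replicate 1 (x axis) and replicate 2 (y axis), both on log axes, with the 9 pairs of the 8 loci in red and the others in grey. The 9 pairs lie inside the main cloud, between 5.26 and 11.9 on the x axis and between 4.03 and 7.87 on the y axis.

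Summits of the 9 paired sites were a median of 18 bp apart, beside 25 bp over all pairs and 26 bp over pairs outside peak-rich windows. Of the 9, 7 (77.8%) were within 50 bp, beside 63.9% of all pairs and 68.6% of pairs outside such windows. The pairs beyond 50 bp were Egln3, at 133 bp, and the third Ddit4 site, at 67 bp. Fold was higher in replicate 1 for 8 of the 9 (88.9%), beside 57.8% of all pairs and 81.2% of pairs outside peak-rich windows, where 8 of the 9 lie.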

How the data were processed

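Chromatin was immunoprecipitated with 10 µg of anti-HIF1A antibody after 9 minutes in 1% formaldehyde, per the labels' protocols. The authors called peaks separately for each immunoprecipitation against 1 control file with MACS, per the file headers, at p = 1e-05 with a tag size of 25 bp; version 1.4.2 of MACS and build mm9 come from the submitters' processing notes. For the aligner, no name or version is given in the sources used here. Each deposited list gives a raw tag count, a score (10 times the -log10 p-value), a fold enrichment (a ratio to local background) and, in percent, the caller's false discovery rate, per the file headers. The immunoprecipitations held 94716495 tags (80.3% unique) and 103139204 tags (84.3% unique).

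Summits (start plus offset) were assigned to the intervals, and peaks were called shared at 1 bp of overlap or more, with counts checked by bedtools 2.31.1 and the code tested on simulated data. Peak-rich windows are those of 1 Mb in which 1 list or both had 8 peaks or more. Intervals on shares are exact (Clopper-Pearson) and those on tags exact Poisson, computed with scipy 1.17.1. All 8 loci are named. The loci, the intervals and the peak-rich windows were chosen with earlier results of these data known. No test between groups was made. A planned list of other HIF pathway genes was not counted, since it needed an mm9 annotation. Alternatives covered interval assignment, thresholds, the overlap rule, single replicates and the motif.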

Additional observations from a re-analysis of the deposited data

How the results depend on the processing

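The number of loci with a peak in both lists was 6; with single replicates (without replicate 2 or without replicate 1) it ranged from 6 to 7. It was 5 with a score of at least 100 in both lists, 4 with a fold of at least 5, and 4 with a false discovery rate of at most 25% in replicate 1, the last chosen after the data were seen. Assigning peaks by any overlap or widening the intervals changed no count. Shared members stayed 9 in each list at 50% reciprocal overlap and were 8 with summits within 100 bp, where Egln3 was lost. Medians rose with stricter thresholds, which remove weak peaks by construction: the median score went from 228.67 to 296.69 (score of at least 100) and 336.8 (fold of at least 5) in replicate 1, and from 191.72 to 343.02 under both in replicate 2. The median fold of replicate 1 went from 5.96 to 6.29 and 6.32. No paired analysis was possible because the input is a single sample with no peak list analysed here. A site listed in 1 replicate may lie under the threshold in the other, and reads were not analysed.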
